A study of Nicotiana attenuata with 6 samples.

Results

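Transcripts of the mitochondrial genome were examined in the peduncles (flower stalks) of Nicotiana attenuata, a wild tobacco, through 26 array probes of 59157 in all. The probes were chosen by name alone. Each carries the entry name of a plant protein it matches, and those kept named a subunit of the respiratory chain or ATP synthase, a mitochondrial ribosomal protein or an uncharacterized open reading frame of the mitochondrial genome. The 26 probes bore 21 different entry names.

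The study compared irZTL plants, in which the clock photoreceptor ZEITLUPE was knocked down by RNA interference, with plants carrying the empty vector (EV). Both were grown in a glasshouse under 16 h of day and 8 h of night, and peduncles were taken at zeitgeber time 0 on the day the flowers started to move. Each group had 3 one-colour arrays, each of 1 pool of peduncles, and the study's methods name a single irZTL line. Nothing in the labels states that separate plants went into each pool, and p-values therefore cover the spread between pools, which may be technical.

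Plant mitochondria keep a small genome that codes for a minority of their proteins. These include subunits of complex I (the NADH dehydrogenase that feeds electrons into the chain), of complex IV (cytochrome c oxidase, which passes them to oxygen) and of the ATP synthase, which uses the resulting proton gradient to make ATP, together with some proteins of the organelle's own ribosome. The other subunits are coded in the nucleus and imported, so each complex is built from the products of 2 genomes. In plant mitochondria a poly(A) tail marks an RNA for decay, and the labelling kit named in the labels primes on poly(A). How far the signal of a probe follows the amount of its transcript was not tested.

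An entry name gives the best-matching protein and not the genome that holds the probed sequence. RT19_ARATH, for example, is a ribosomal protein whose gene lies in the nucleus in Arabidopsis, and ATP4_IPOBA names a nuclear-encoded subunit of the ATP synthase. Copies of mitochondrial DNA in plant nuclei are common. The files pair no probe with a position, so chromosome and exon are not given here. The label of the set therefore rests on names. Levels of different probes are not compared, since signal also depends on the probe.

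Values below are log2 of the processed signal minus the 75th percentile of the array (array units on the log2 scale), so that 0 is the signal at that percentile and 1 unit is a 2-fold change. A probe was called measured where either group had it well above background on each of its 3 arrays. The 75th percentile of the processed signal ran from 239 to 327 over the arrays and 29222 to 30175 probes were well above background on an array. Probes named for proteins of green tissue were well above background on all arrays, among them RBS2_NICSY, the small subunit of Rubisco, as were CAMT5_TOBAC and CAMT6_TOBAC, methyltransferases of lignin synthesis. The green-tissue names caught 8 probes, among them 2 of PSA6_TOBAC, a proteasome subunit and not a protein of green tissue. Of the 8, 2 were lower in irZTL past the threshold used below, neither of them PSA6_TOBAC, and 0 higher. CB23_TOBAC, which binds chlorophyll in the antenna complex, had a difference of -2.46 log2 (limma adjusted p = 0.00497), and RCA_SOLPN, Rubisco activase, fell by 1.34 (adjusted p = 0.00541). CB23_SOLLC had a difference of -1.70 (limma adjusted p = 0.0611) and RBS2_NICSY of -0.05. PSAEA_NICSY and PSAEB_NICSY, also caught by the green-tissue names, had differences of -0.02 and 0.07 (limma adjusted p = 0.927 and 0.703). The summed linear signal of the 8, PSA6_TOBAC included, relative to the 75th percentile, ran from 1118 to 1289 in irZTL and from 1153 to 1414 in EV. This sum mostly follows RBS2_NICSY, which lay at 9.98 to 10.33 log2, while no other probe of the 8 was above 5.36. It therefore does not show the lower values of CB23_TOBAC and RCA_SOLPN. The part of green tissue in the mitochondrial values was not tested. Of the probes caught by pollen and anther names, LAT52_SOLLC was above background on 5 arrays and ranged from -5.42 to -0.74, with no common level in either group. POLC2_TOBAC, also a pollen protein, had a difference of -0.60 log2 (limma adjusted p = 0.0461), which is under 2-fold. PMA1_NICPL, a plasma membrane ATPase that the names also caught and not a protein of pollen alone, had a difference of 0.18 (limma adjusted p = 0.645). The part of these in the mitochondrial values was not tested. irZTL replicates 1 and 2 lay on slide 1, and irZTL replicate 3 lay on slide 2 with all EV arrays, so slide and group are partly confounded.

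Transcripts named for respiratory and ribosomal proteins were mostly detected, and those named for uncharacterized reading frames mostly were not. Of the 26 probes 13 were measured, and of all probes on the array 48.5%. Of 11 probes for the respiratory chain and ATP synthase 8 were measured, of 6 for ribosomal proteins 4, and of 9 for uncharacterized reading frames 1. Another 11 of the 26 were not well above background on any array. Each member had 1 spot, and none was saturated or marked as an outlier.

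The undetected respiratory and ribosomal probes each had a measured relative, apart from ATPAM_NICPL, the alpha subunit of the ATP synthase, and RT13_SOYBN, a small-subunit ribosomal protein. ATP6_BRATO, a Brassica entry for subunit a of the ATP synthase, was not above background on any array, while the tobacco entry ATP6_TOBAC was. RT14_BRANA was carried by 2 probes, of which NA33071_22892 was well above background on 6 arrays and NA46423_22890 on 0. The undetected reading frames were 3 probes of M1280_ARATH, 2 of M710_ARATH, M240_ARATH and M810_ARATH. By a looser flag of the extraction software, signal positive and significant over background, 5 of these 11 were detected on no array, and M1280_ARATH NA48945_21917 was detected on 5 arrays.

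**Figure D1:**
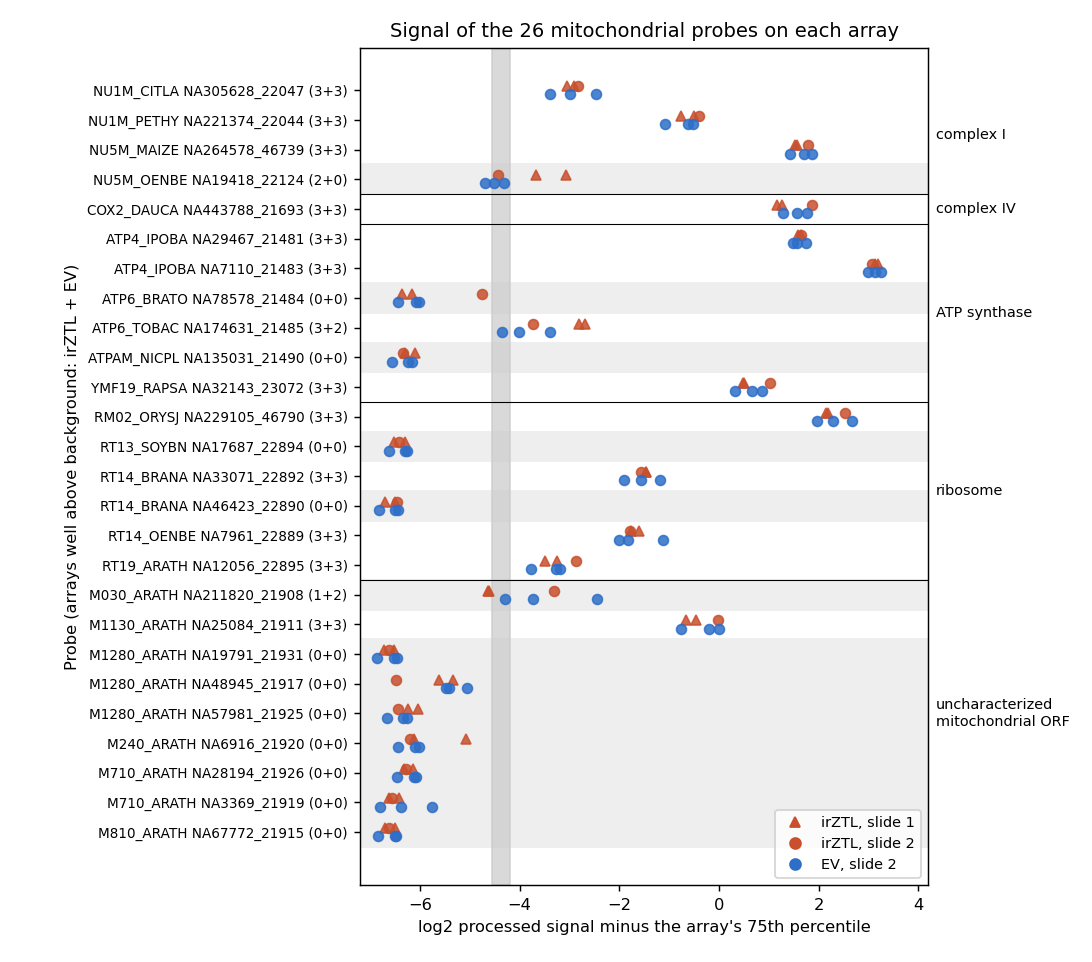
Signal of the 26 mitochondrial probes on each array, as log2 processed signal minus the array's 75th percentile on the horizontal axis, by role; triangles are slide 1, circles slide 2, and grey rows are probes that were not measured. The dark band spans the lowest value of any probe well above background on each array (-4.56 to -4.20); measured probes lie right of it apart from ATP6_TOBAC in EV replicate 3 (-4.36), and 11 grey rows lie left of it.

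A pair of members lay between detected and undetected. NU5M_OENBE, an evening primrose entry for subunit 5 of complex I, had values of -3.68, -3.07 and -4.44 in irZTL replicates 1 to 3 and -4.31, -4.70 and -4.52 in EV. It was well above background only in the irZTL replicates of slide 1, and irZTL replicate 3 lay within the EV range. No fold is given, since no EV array and not every irZTL array had it well above background. By the looser flag its signal was positive and significant over background on 6 arrays.

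M030_ARATH, an uncharacterized reading frame, had values of -4.63, -4.61 and -3.31 in irZTL and -3.74, -2.45 and -4.29 in EV. It was well above background in irZTL replicate 3 and EV replicates 1 and 2, so the arrays that detected it came from both groups. Both members stayed outside the test on measured probes.

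None of the 13 measured members differed between irZTL and EV by the test, and in none were the groups apart. The threshold was an adjusted p under 0.05 in limma, with Benjamini-Hochberg adjustment over 28683 measured probes, and a change over 2-fold. It was passed by 0 members and by 502 of all measured probes (1.75%). The groups did not overlap for 0 members and for 25.2% of measured probes. An unadjusted p under 0.05 was reached by 1 member and by 20.1% of measured probes. The methods' t-test gave 0 members past the threshold and 0 with an unadjusted p under 0.05. Of all 28683 measured probes it gave 77 and 4938. Over the 13 probes 8 differences were positive and 5 negative, with a median of 0.02 log2, and the median over all measured probes was -0.0059. With 3 against 3 arrays the exact two-sided permutation test cannot go below 0.1, and no member reached that.

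Complex I was read by 3 measured probes. NU1M_PETHY, a petunia entry for subunit 1, a membrane subunit near the quinone site, had values of -0.77, -0.51 and -0.41 in irZTL and -0.63, -1.08 and -0.52 in EV. The groups overlapped, with EV replicate 2 below all other arrays. The difference was 0.18 ± 0.18 log2 (95% interval -0.24 to 0.61, limma adjusted p = 0.624).

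NU1M_CITLA, the watermelon entry for the same subunit, had values of -2.92, -3.04 and -2.84 in irZTL and -2.47, -3.39 and -2.99 in EV. The EV arrays lay both above and below all irZTL arrays. The 2 subunit 1 probes thus gave differences of 0.18 and 0.02 log2, each inside the interval of the other.

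NU5M_MAIZE, the maize entry for subunit 5, one of the proton-pumping membrane subunits, had values of 1.56, 1.53 and 1.78 in irZTL and 1.87, 1.42 and 1.70 in EV. The difference was -0.04 ± 0.14 log2 (95% interval -0.39 to 0.30). The groups overlapped, and every array had it well above background, unlike NU5M_OENBE.

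COX2_DAUCA, a carrot entry for the subunit of complex IV that accepts electrons from cytochrome c, had values of 1.17, 1.26 and 1.86 in irZTL and 1.57, 1.28 and 1.78 in EV. The lowest and the highest array were both irZTL. The difference was -0.11 ± 0.22 log2 (95% interval -0.63 to 0.41, adjusted p = 0.824 in limma).

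The ATP synthase was read by 4 measured probes with 3 entry names. ATP4_IPOBA, a sweet potato entry for the nuclear-encoded delta' subunit of the enzyme, had 2 probes. The first (NA29467_21481) had values of 1.65, 1.59 and 1.65 in irZTL and 1.57, 1.75 and 1.48 in EV. The second (NA7110_21483) had values of 3.20, 3.14 and 3.07 in irZTL and 3.12, 3.24 and 2.99 in EV. Both were highest in EV replicate 2 and lowest in EV replicate 3. They had the lowest EV standard deviations of the 13 members (0.14 and 0.13), and their differences were 0.02 ± 0.10 log2 in both (intervals of -0.22 to 0.27 and -0.23 to 0.26).

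YMF19_RAPSA, a radish entry for the small subunit also known as ATP8, had values of 0.49, 0.51 and 1.03 in irZTL and 0.86, 0.32 and 0.67 in EV. The groups overlapped, and irZTL replicate 3 was the highest array. The difference was 0.06 ± 0.20 log2 (95% interval -0.42 to 0.54).

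ATP6_TOBAC, the tobacco entry for subunit a, which forms the proton path with the ring of c subunits, was the member with the largest difference. Its values were -2.82, -2.69 and -3.73 in irZTL and -3.39, -4.01 and -4.36 in EV. irZTL replicates 1 and 2 were above all EV arrays and irZTL replicate 3 lay between EV replicates 1 and 2. The difference was 0.84 ± 0.35 log2 (1.79-fold higher in irZTL, 95% interval 0.01 to 1.67) with a limma adjusted p of 0.242 and an exact permutation p of 0.2. Between arrays of the same replicate number irZTL was higher in 3 of 3 pairs, by 0.57, 1.32 and 0.63 log2, and with the number as a block the difference was 0.84 ± 0.18 (limma adjusted p = 0.0645). An exact sign-flip test of the pairs gave p = 0.25, the smallest that 3 pairs allow. The 3 pairs had 1 sign for 1 of the 13 members and for 51.3% of all measured probes. All irZTL arrays but only 2 of the 3 EV arrays had it well above background. Its spot error, as the extraction software estimated it, was 12.4% to 29.1% of the signal, against about 10% for bright members such as RM02_ORYSJ. It was 0.19 log2 with slide as a fixed block and 0.19 with normexp background correction of the median signal.

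Ribosomal members gave small differences of either sign. RM02_ORYSJ, a rice entry for the large-subunit protein L2, had values of 2.18, 2.14 and 2.52 in irZTL and 2.68, 1.96 and 2.29 in EV. The lowest and highest array were both EV, and the difference was -0.03 ± 0.20 log2 (95% interval -0.51 to 0.46). RT14_BRANA (NA33071_22892), a rapeseed entry for the small-subunit protein S14, had values of -1.48, -1.48 and -1.57 in irZTL and -1.19, -1.91 and -1.57 in EV. The irZTL arrays were within 0.1 of each other while the EV arrays spread on both sides of them. RT14_OENBE, an evening primrose entry for the same protein, had values of -1.76, -1.60 and -1.79 in irZTL and -1.11, -2.01 and -1.83 in EV. The 2 S14 probes put the EV arrays in the same order, with replicate 1 highest and replicate 2 lowest, and had differences of 0.05 ± 0.18 and -0.07 ± 0.23 log2.

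RT19_ARATH, an Arabidopsis entry for the small-subunit protein S19, had values of -3.26, -3.48 and -2.88 in irZTL and -3.19, -3.76 and -3.28 in EV. Its difference was 0.21 ± 0.21 log2 (95% interval -0.30 to 0.71). M1130_ARATH, the only measured reading frame of unknown function, had values of -0.66, -0.45 and -0.03 in irZTL and -0.0012, -0.77 and -0.20 in EV. Its difference was -0.06 ± 0.24 log2 (95% interval -0.64 to 0.52), and both groups covered nearly the same range.

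**Figure D2:**
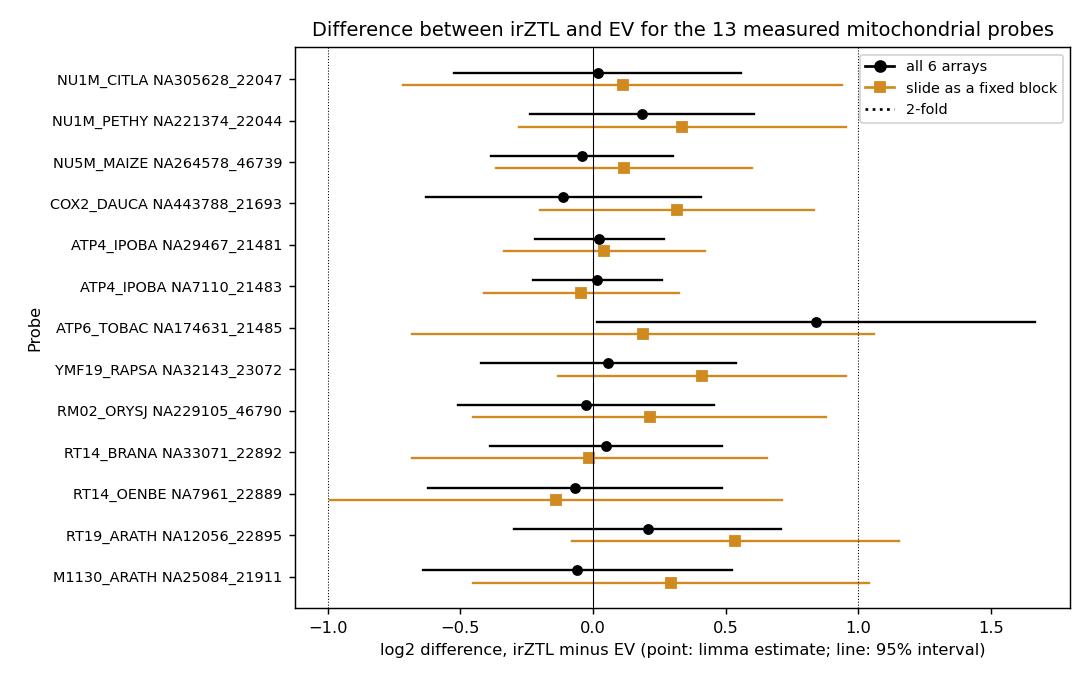
Differences between irZTL and EV (log2, horizontal axis) of the 13 measured probes, with the limma estimate as a point and the 95% interval as a line, for all 6 arrays (black circles) and with slide as a fixed block (orange squares); dotted lines mark 2-fold. With all arrays 12 of 13 intervals lie within 2-fold and 12 include 0; with the block 10 lie within 2-fold and 13 include 0.

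For 12 of the 13 measured members the 95% interval lay wholly within a 2-fold change in either direction. Apart from ATP6_TOBAC the interval bounds ran from -0.64 to 0.71 log2 and the differences from -0.11 to 0.21. The limma adjusted p of these 12 ran from 0.624 to 0.977. With the slide block, a fit that in effect sets irZTL replicate 3 against the EV arrays, the bounds of these 12 ran from -0.99 to 1.15 log2 and 10 of all 13 intervals stayed within 2-fold. The 3 that did not were those of ATP6_TOBAC, RT19_ARATH and M1130_ARATH.

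The median spread of the members between pools of a group was above that of all measured probes, clearly in EV and less so in irZTL. The median standard deviation between EV replicates was 0.31 log2 over the 13 members and 0.16 over all measured probes. Between irZTL replicates it was 0.18 and 0.14. Among probes with a mean above -2 the medians in EV were 0.29 for 10 members and 0.14 for all. For 49 measured plastid-genome probes the medians were 0.23 in EV and 0.15 in irZTL. For the 9 measured probes of a list of nuclear-encoded mitochondrial proteins, described below, the EV median was 0.10. It was 0.088 for the 6 left without NDUS2_NICSY and IDHC_TOBAC.

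Much of this spread followed the array. EV replicate 2 was the lowest EV array for 10 of the 13 members (76.9%), against 26.9% of all measured probes. In those 10 members it lay 0.24 to 0.45 log2 below the group mean, whether their signal was high, as for RM02_ORYSJ, or low, as for RT19_ARATH. The exceptions were both ATP4_IPOBA probes, for which EV replicate 2 was the highest, and ATP6_TOBAC, for which EV replicate 3 was the lowest. EV replicate 1 was the highest EV array for 9 of the 13, against 35.2% of all measured probes. The median deviation of the 13 members in EV replicate 2 was -0.34 log2, and it was -0.35 with median scaling and -0.31 with quantile normalization. Over all measured probes it was 0.02. These members are not independent, since they may lie on shared transcripts of 1 genome, and no test is given.

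Plastid-genome probes, the transcripts of the other organelle, moved the same way in EV replicate 2. It was the lowest EV array for 40 of 49 measured plastid probes (81.6%), with a median deviation of -0.21 log2. Among the 9 measured probes of the nuclear list it was the lowest for 4 (44.4%), with a median deviation of 0.032. Among the 6 left without NDUS2_NICSY and IDHC_TOBAC, a choice made after their values were seen, it was the lowest for 2, with a median deviation of 0.041. EV replicate 2 was also the array with the highest 75th percentile (327) and the most probes well above background (30175). The part of these in the low organelle values was not tested.

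**Figure D3:**
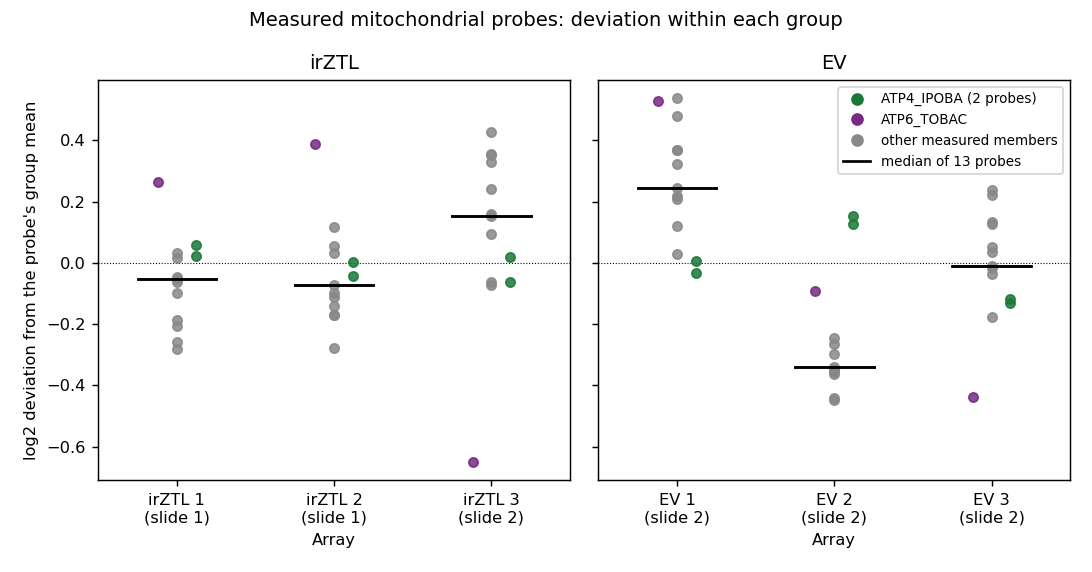
Deviation of each measured member from its group mean (log2, vertical axis) on each array, for irZTL (left) and EV (right); black bars are medians of the 13 probes. In EV replicate 2 the median is -0.34 and the 10 members lowest there lie between -0.45 and -0.24, while both ATP4_IPOBA probes are above 0; in irZTL replicate 3 ATP6_TOBAC lies at -0.65 while the median is 0.15.

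Because of this spread the balance of signs turned on single EV arrays. Without EV replicate 1, 12 of the 13 differences were positive with a median of 0.18 log2. Without EV replicate 2, 5 were positive and 8 negative with a median of -0.13. No member passed the threshold in either case. No direction for the set as a whole is therefore settled.

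Within irZTL, replicate 3 (slide 2) was set against the mean of replicates 1 and 2 (slide 1) as a description. Its value was higher for COX2_DAUCA by 0.64 log2, for YMF19_RAPSA and M1130_ARATH by 0.53, for RT19_ARATH by 0.50 and for RM02_ORYSJ by 0.36. For ATP6_TOBAC the difference was -0.98 log2. For the other 7 it lay between -0.11 and 0.24. A limma fit of this contrast takes its spread from the 2 slide 1 arrays and assumes that the lone slide 2 array varies like them. It gave an adjusted p under 0.05 for 0 members and 0% of all measured probes. With normexp correction it did so for 1 member, COX2_DAUCA (0.54 log2, adjusted p = 0.0383 in limma), and for 4.29% of measured probes. With 1 array on slide 2, the slide and the pool cannot be told apart.

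**Figure D4:**
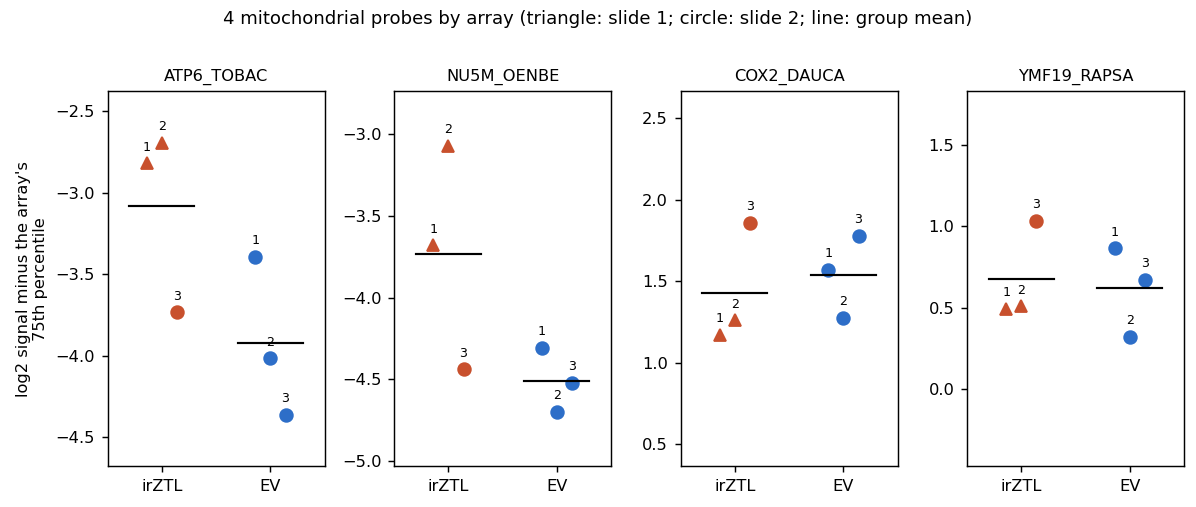
Values of ATP6_TOBAC, NU5M_OENBE, COX2_DAUCA and YMF19_RAPSA on each array (log2 processed signal minus the array's 75th percentile; axes span equal ranges but are shifted), with replicate numbers; triangles are slide 1, circles slide 2 and lines group means. irZTL replicate 3 lies within the EV range for ATP6_TOBAC and NU5M_OENBE and above both other irZTL arrays for COX2_DAUCA and YMF19_RAPSA.

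In both ATP6_TOBAC and NU5M_OENBE, irZTL replicates 1 and 2 were above all other arrays and irZTL replicate 3 lay among the EV arrays. For NU5M_OENBE no EV array was well above background. In COX2_DAUCA and YMF19_RAPSA irZTL replicate 3 was above both other irZTL arrays. Without irZTL replicate 3 the ATP6_TOBAC difference was 1.17 log2 (limma adjusted p = 0.0789), in a comparison where no slide held both groups. On slide 2 alone it was 0.19 log2 (adjusted p = 0.950).

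Other proteins of mitochondrial metabolism were taken from a name list meant for nuclear-encoded mitochondrial proteins. It also caught 2 probes of NDUS2_NICSY, usually coded in the mitochondrial genome, and IDHC_TOBAC, a cytosolic enzyme. Of its 11 probes 9 were measured, and 0 passed the threshold in limma, with 1 at an unadjusted p under 0.05. The methods' t-test also gave 0, with 2 at an unadjusted p under 0.05, against 77 and 4938 of all 28683 measured probes. The median difference was -0.02 log2, with 4 positive and 5 negative. Without NDUS2_NICSY and IDHC_TOBAC, left out after their values were seen, 6 probes remained, of which 0 passed, with a median of -0.03 log2. CYC_HELAN, cytochrome c, and NDUS1_SOLTU, an iron-sulfur subunit of complex I, were not measured.

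DHEB_NICPL, an entry for glutamate dehydrogenase, which links nitrogen metabolism to the citric acid cycle, had values of 3.08, 3.02 and 2.94 in irZTL and 2.83, 2.68 and 2.71 in EV. All irZTL arrays were above all EV arrays, and the difference was 0.27 ± 0.09 log2 (adjusted p = 0.162 in limma, exact permutation p = 0.1). DHEA_NICPL, the other entry for this enzyme, had a difference of -0.07 ± 0.19 log2. ADT2_SOLTU, the carrier that exchanges ADP and ATP across the inner membrane, had values of 7.68, 7.60 and 7.61 in irZTL and 7.44, 7.51 and 7.43 in EV. Its groups did not overlap either, and its difference was 0.17 ± 0.08 log2 (limma adjusted p = 0.336). Groups that did not overlap were common, with 25.2% of all measured probes.

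VDAC2_SOLTU, a pore of the outer membrane, had a difference of -0.02 ± 0.11 log2. GLYM_SOLTU, the serine hydroxymethyltransferase of photorespiration, had one of -0.03 ± 0.10 and MAON_SOLTU, a malic enzyme, one of -0.12 ± 0.10. IDHC_TOBAC, the cytosolic isocitrate dehydrogenase, had a difference of 0.09 ± 0.10.

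NDUS2_NICSY is the subunit of complex I that is usually called NAD7 in plants. Its probe NA116825_22014 had values of -0.09, -0.01 and 0.26 in irZTL and 0.33, -0.23 and 0.12 in EV. Its probe NA296686_22017 had values of -0.29, -0.0098 and 0.30 in irZTL and 0.15, -0.44 and 0.19 in EV. In both EV replicate 2 was the lowest array of its group and irZTL replicate 3 the highest, as in 10 and 8 of the 13 members. The differences were -0.02 ± 0.17 and 0.03 ± 0.22 log2.

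The probes whose pattern over the 6 arrays was most like ATP6_TOBAC and NU1M_PETHY were looked up among 187 measured probes with a readable name outside the set, as a description with no p. For NU1M_PETHY they were CLPP_EPIVI, a plastid-genome protease subunit (Pearson r = 0.949), RK2_SILLA, a plastid-genome ribosomal protein (r = 0.948), and NDUS2_NICSY (NA296686_22017, r = 0.908). For ATP6_TOBAC they were STA_RICCO, a castor bean sugar carrier (r = 0.948), DHEB_NICPL (r = 0.882) and IPIPR_MENPI, a mint entry for a reductase of monoterpene synthesis (r = 0.871). By name, the 3 likest NU1M_PETHY were proteins usually coded in an organelle genome, and the 3 likest ATP6_TOBAC were not. DHEB_NICPL is on the list of nuclear-encoded mitochondrial proteins. Plastid-genome names made up 49 of the 187, and 6 arrays are few for ranking correlations. STA_RICCO had a difference of 0.47 log2 between groups with a limma adjusted p of 0.197.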

How the data were processed

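Cy3-labelled RNA of 6 peduncle pools was hybridized to one-colour Agilent arrays. Per the file headers the scanner files hold processed spot intensity (linear, background subtracted and detrended within the array), median spot and background intensity, and flags, made with Feature Extraction 10.7.3.1 (9.5 per the submitters' processing notes). The authors' deposited table is on the log2 scale, with each array set to its 75th percentile according to the design text. Its rows were matched by feature number, and between 99.89% and 99.92% of an array's probes differed by no more than 0.02 from the values used here. Its column medians ran from -4.12 to -3.98, with no centring per probe.

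Outlier spots and control spots were left out, spots of a probe averaged, and log2 processed intensity minus the 75th percentile over probes was used. Groups were compared by limma's lmFit and eBayes (version 3.58.1, R 4.3.3; two-sided), which was tested on simulated data. Each ± after a difference is limma's standard error. The number of arrays limits the precision. Alternatives changed the background correction, scaling, filter, slide, pairing, arrays, weights and test. Replicate numbers are shared between groups. Deviations of same-numbered arrays correlated at 0.386, 0.141 and 0.371 over measured probes, and those of differently numbered arrays at -0.33 to 0.0573. Deviations within a group sum to 0, which constrains these values. The numbers were taken to pair the samples in the replicate block, from the data and not the labels. The p-values of that fit are therefore not independent of this choice. The main fit and its intervals do not use the pairing. The planned normexp correction used the median spot signal. All members and all measured probes of the nuclear list were named, and 3 likest probes for each of 2 members. Members, lists and tests were chosen with earlier results of these data known. No probe identifier matched the reference gene table (0 matches).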

Additional observations from a re-analysis of the deposited data

Results flagged for a closer look

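NU5M_OENBE, a complex I probe outside the tested set, had signal well above background in 2 irZTL arrays and in 0 EV arrays. The irZTL arrays concerned were both on slide 1, and irZTL replicate 3 lay within the EV range, so no fold is given. Dixon's test for an outlying array was not applied, since each group holds 3 arrays.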

How the results depend on the processing

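The measured members gave 0 calls in each of 19 settings and with no fold minimum, and the nuclear list also gave 0. The setting that asked for signal well above background on all 6 arrays tested 12 members, without ATP6_TOBAC. The count of measured members was 12 to 16 under other detection rules. The slide comparison under normexp and quantile normalization, and the nuclear list without NDUS2_NICSY and IDHC_TOBAC, were added after the data were seen. All probes past the threshold numbered 502 (258 higher, 244 lower), 267 (121, 146) with normexp, 260 (126, 134) with no filter, 207 (76, 131) with a fixed slide block, 62 (19, 43) for slide 2 alone, 77 with the methods' t-test, 759 with array weights and 1156 with no fold minimum. Leaving out 1 array gave 242 to 718. The replicate block gave 689 and changed no call of a member. Without irZTL replicate 1 or 2 the count was 303 or 271, and without EV replicate 2 or 3 it was 242 or 316.

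Of the alternative values for member differences between irZTL and EV, 37 had the other sign and 196 kept it, all of them without a call. With the slide block and on slide 2 alone these were RM02_ORYSJ (0.21), M1130_ARATH (0.29), NU5M_MAIZE (0.12), COX2_DAUCA (0.32), RT14_BRANA (-0.013) and ATP4_IPOBA NA7110_21483 (-0.044). With normexp they were RM02_ORYSJ (0.057) and NU1M_CITLA (-0.064), with the random block RM02_ORYSJ (0.0075), and with array weights YMF19_RAPSA (-0.025) and RT14_OENBE (0.028). Between slides within irZTL, normexp turned ATP4_IPOBA NA29467_21481 (-0.071), RT14_BRANA (0.043) and RT14_OENBE (0.015). Leaving out 1 array gave ranges that crossed 0 for ATP4_IPOBA (-0.035 to 0.10 and -0.049 to 0.080), COX2_DAUCA (-0.33 to 0.018), M1130_ARATH (-0.28 to 0.10), NU1M_CITLA (-0.20 to 0.26), NU5M_MAIZE (-0.16 to 0.063), RM02_ORYSJ (-0.20 to 0.16), RT14_BRANA (-0.13 to 0.23), RT14_OENBE (-0.25 to 0.20) and YMF19_RAPSA (-0.12 to 0.18). ATP6_TOBAC ran from 0.62 to 1.17. The causes were not tested. Normexp's offset of 50 makes differences of dim probes smaller. Signal over background limits NU5M_OENBE, M030_ARATH and ATP6_TOBAC.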
